A study of Homo sapiens with 12 samples.

Results

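The stretch of chromosome 4 from PPP3CA to MMAA, at 4q24-q31, was described across 4 groups of SK-N-Be(2)C neuroblastoma cells. Its members are 55 named genes in 2 runs of neighbours. Run 1 lies at 4q24-q25 and holds 28 genes from PPP3CA to EGF, and run 2 lies at 4q28-q31 and holds 27 genes from PGRMC2 to MMAA. The members were chosen by the signals of DoxR-v cells on these same arrays, in which both runs were lower, so all values of DoxR-v cells are a description of the members and carry no test. Of the 55 members, 42 were measured, 20 in run 1 and 22 in run 2, among 12138 genes measured in all. A gene counted as measured if any array detected a probe of it (detection p-value under 0.01). The other 13 members have no value. BANK1, BDH2, TET2, NPNT, AIMP1, SGMS2 and EGF of run 1 and SETD7, MAML3, HHIP, OTUD4 and SMAD1 of run 2 had a probe that was detected on no array, and UBE2D3 of run 1 had no probe in the annotation used.

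SK-N-Be(2)C is an established neuroblastoma line from bone marrow, and total RNA of each of the 4 groups was hybridized to 3 Human HT-12 v4 BeadChip arrays. DoxR-v cells were grown in stepwise increasing doxorubicin until resistant and were also exposed to the histone deacetylase inhibitor vorinostat (SAHA in the labels) at each logarithmic increase of the dose. DoxR cells were made resistant to doxorubicin in the same way without vorinostat. WT-v cells were parental cells that received vorinostat alone at the same times, and WT cells were the untreated parental line. No group carries an engineered allele, and how long each resistant line was selected and whether a line is 1 clone are not given in the sources used here. Nothing in the labels says that the 3 specimens of a group came from separate cultures, so p-values measure only the spread between these specimens, which may be technical.

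Median raw probe signals ranged from 98.7 to 125 over the 12 arrays, each array detected 31.3% to 36.5% of probes, and arrays of a group correlated at 0.981 to 0.993. Over all genes the median SD between arrays was 0.172 in DoxR-v, 0.120 in DoxR, 0.187 in WT-v and 0.213 in WT cells, on the log2 scale. Of 13 neuroblastoma markers, 12 were on the array and 11 of them were detected on all 12 arrays. The exception was TH, which makes the precursor of catecholamines and was detected on no DoxR array, with means of 13.40 in DoxR-v, 4.46 in DoxR, 13.39 in WT-v and 7.82 in WT cells. Of 9 markers of other cell types on the array, 7 were detected on no array and COL1A1 on 1 WT-v array alone. COL3A1, a collagen of connective tissue, was detected on all 3 DoxR and all 3 WT-v arrays and on no DoxR-v or WT array. Values below are log2 signals after background correction and quantile normalization, and limma called a change where the adjusted p was under 0.1 and the fold over 1.5.

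Neighbours on a chromosome share their DNA copy number and may share chromatin and regulatory elements, and the arrays read RNA alone, so neither was measured here. The products of these members have little in common. They include the transcription factor LEF1, through which beta-catenin of the Wnt pathway acts on its targets, NFKB1, the precursor of an NF-kappaB subunit, the zinc and manganese importer SLC39A8, the ubiquitin ligase RNF150, a subunit of the anaphase-promoting complex (ANAPC10) and chaperones and carriers of the secretory pathway.

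Some members start head to head, on opposite strands with a short span between their starts, and these spans are shown because both genes of such a pair read away from 1 piece of DNA. RefSeq promoters (build GRCh38.p14, 250 bases before to 50 bases after a start) matched 49 of the 55 members and gave 92 promoters. With starts at most 1000 bases apart, 5 pairs were found, UBE2D3/CISD2, INTS12/GSTCD, TBCK/AIMP1, SCLT1/C4orf33 and ANAPC10/ABCE1, with 96, 94, 340, 172 and 91 bases between the starts. Both genes were measured in 3 of these pairs. The spans of INTS12/GSTCD (chr4:105708690-105708783) and SCLT1/C4orf33 (chr4:129093540-129093711) are given on the plus strand, and the 250 bases before the start of LEF1 (chr4:108166302-108166551) on its own minus strand, since LEF1 had the widest differences of any member. Capitals mark a GC box (GGGCGG) or a CCAAT box (CCAAT) on either strand.
INTS12/GSTCD: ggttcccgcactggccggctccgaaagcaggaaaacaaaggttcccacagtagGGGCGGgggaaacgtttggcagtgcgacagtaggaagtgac
SCLT1/C4orf33: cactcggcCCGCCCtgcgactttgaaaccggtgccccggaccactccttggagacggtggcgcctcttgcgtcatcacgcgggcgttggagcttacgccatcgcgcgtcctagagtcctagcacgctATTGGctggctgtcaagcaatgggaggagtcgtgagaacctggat
LEF1: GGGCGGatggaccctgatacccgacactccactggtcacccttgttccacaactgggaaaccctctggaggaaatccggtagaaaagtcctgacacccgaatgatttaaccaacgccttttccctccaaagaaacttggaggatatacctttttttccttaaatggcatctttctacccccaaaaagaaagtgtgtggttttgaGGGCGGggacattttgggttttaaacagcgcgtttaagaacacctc
The INTS12/GSTCD span held 1 GC box, the SCLT1/C4orf33 span 1 GC box and 1 CCAAT box, and the LEF1 sequence 2 GC boxes. A GC box was found on either strand in 58.7% of the members' 92 promoters and in 45% of all 35116 promoters of the table. The shares were 30.4% and 34.6% for the CCAAT box, 15.2% and 7.98% for the CRE half-site (TGACGT), 9.78% and 7.26% for the E-box (CACGTG), 15.2% and 11.5% for the TATA box (TATAAA), 7.61% and 10.3% for the ETS core (CCGGAAG), 7.61% and 5.55% for YY1 (ATGGCGG) and 1.09% and 4.43% for the NRF1 half-site (GCGCATG). Such a match is a run of letters and no evidence that a factor was bound.

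Both runs sat below WT cells in both resistant groups, and neither did in WT-v cells. Per array, the median member of run 1 lay 0.42, 0.65 and 0.61 log2 units below the mean of WT in DoxR-v cells and 0.26, 0.28 and 0.35 below it in DoxR cells. The same median was −0.02, 0.02 and −0.10 on the WT-v arrays and −0.07, −0.10 and 0.19 on the WT arrays. For run 2 the medians were −0.53, −0.81 and −0.53 in DoxR-v, −0.60, −0.64 and −0.70 in DoxR, −0.08, 0.10 and −0.25 in WT-v and 0.00, −0.04 and 0.04 in WT cells. Thus every array of the resistant groups lay below every array of the sensitive groups in both runs. In run 1 the 3 DoxR-v arrays lay below the 3 DoxR arrays, whereas in run 2 the 2 resistant groups overlapped. These medians are scores over genes chosen for DoxR-v cells and were given no test. Whether fewer cells held a transcript or each cell held less of it cannot be told apart in bulk RNA.

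**Figure D1:**
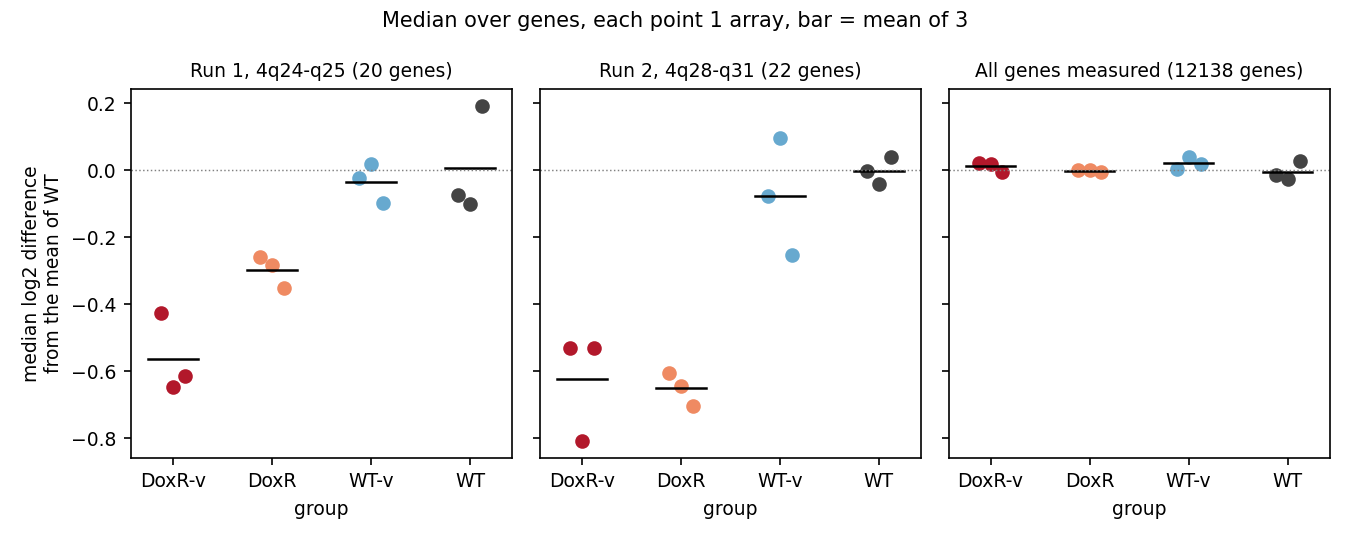
Median log2 difference from the mean of WT (vertical axis) over the measured members of run 1 (left), run 2 (middle) and all genes measured (right), with 1 point per array and a bar at the mean of 3 arrays for DoxR-v, DoxR, WT-v and WT. The 3 DoxR arrays sit between −0.35 and −0.26 in run 1 and between −0.70 and −0.60 in run 2, while the 12 medians of all genes lie between −0.03 and 0.04.

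DoxR-v cells had the lowest mean of the 4 groups for 23 of the 42 members, DoxR cells for 13, WT-v cells for 3 and WT cells for 3. Over all genes measured, these shares were 22.4%, 28.6%, 21.7% and 27.3%. The highest mean was in DoxR-v cells for 1 member, in DoxR cells for 4, in WT-v cells for 15 and in WT cells for 22. The shares of all genes highest in these groups were 22.1%, 26.4%, 26.9% and 24.6%. As the members were chosen for low DoxR-v values, nothing is read from these counts. By run, DoxR-v cells were lowest for 13 of 20 members in run 1, against 4 in DoxR cells, and for 10 of 22 members in run 2, against 9 in DoxR cells.

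Of the 42 measured members, 23 were past the limits for lower and 1 for higher in DoxR-v against WT cells, 10 and 1 of them in run 1 and 13 and 0 in run 2. The median log2 difference was −0.59, and over all genes 12.6% were called lower and 13.3% higher in this contrast. Nothing is read from it, since the members were chosen by DoxR-v values. Scaled to a common median instead of by quantiles, 12 members were past the limits for lower, beside 6.41% of all genes, and 2 for higher. Against DoxR cells 6 members were lower and 0 higher in DoxR-v cells (14.4% and 14.7% of all genes), with a median of −0.07. Against WT-v cells 15 were lower and 0 higher (12.8% and 12.6% of all genes), with a median of −0.43.

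In DoxR against WT cells, 18 of the 42 measured members fell and 4 rose, where 16.3% of all 12138 genes fell and 17.4% rose. In run 1, 6 of 20 fell and 2 rose, with a median log2 difference of −0.35, and in run 2, 12 of 22 fell and 2 rose, with a median of −0.65. All genes had a median of 0.01. The signals of 23 members were lower on every DoxR array than on any WT array, as were 26.4% of all genes, and those of 4 were higher on every one, as were 28.4% of all genes. This contrast holds no DoxR-v array but shares the WT arrays with DoxR-v against WT cells. With WT-v cells in place of WT it holds neither DoxR-v nor WT arrays. Which group DoxR-v cells were set against when the members were chosen is not stated, so independence from that choice is not claimed. In DoxR against WT-v cells 9 of 42 members fell and 1 rose (16.1% and 15.6% of all genes), with a median of −0.32, against −0.04 for all genes, and 18 members were lower and 3 higher on every DoxR array than on any WT-v array (29.2% and 26.2% of all genes). Of these, 3 of 20 fell and 0 rose in run 1 and 6 of 22 fell and 1 rose in run 2. Leaving out 1 array at a time, 8 to 15 members fell in this contrast, the 15 being of 40 measured without WT-v replicate 3. The shares of all genes were not counted for these fits.

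In WT-v against WT cells 5 members fell and 4 rose (11.9% and 9.52%, beside 12.5% and 14.5% of all genes). Their medians were −0.05 in run 1 and −0.11 in run 2. Of the 54 other genes measured inside the stretch, 8 fell and 10 rose (14.8% and 18.5%). Scaled to a common median, 1 member fell, beside 6.74% of all genes, and 8 rose, while the median of all genes itself stood at 0.24. Set side by side against WT, 9 members were past the limits for lower in DoxR-v and DoxR and called in neither direction in WT-v cells, 5 were lower in all 3 groups, 7 were lower in DoxR-v and 3 in DoxR cells with no call in the other groups, and 13 were called in none of the 3. Of the other 5, RNF150 was lower in both resistant groups and higher in WT-v cells, and LEF1 was lower in DoxR-v and higher in DoxR and WT-v cells. SLC39A8 was higher in all 3, GAB1 was higher in DoxR and WT-v cells and RAB33B was higher in DoxR cells. The share of all genes with each pattern was not counted. The patterns also rest on the DoxR-v values that chose the members, so nothing is read from their counts.

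**Figure D2:**
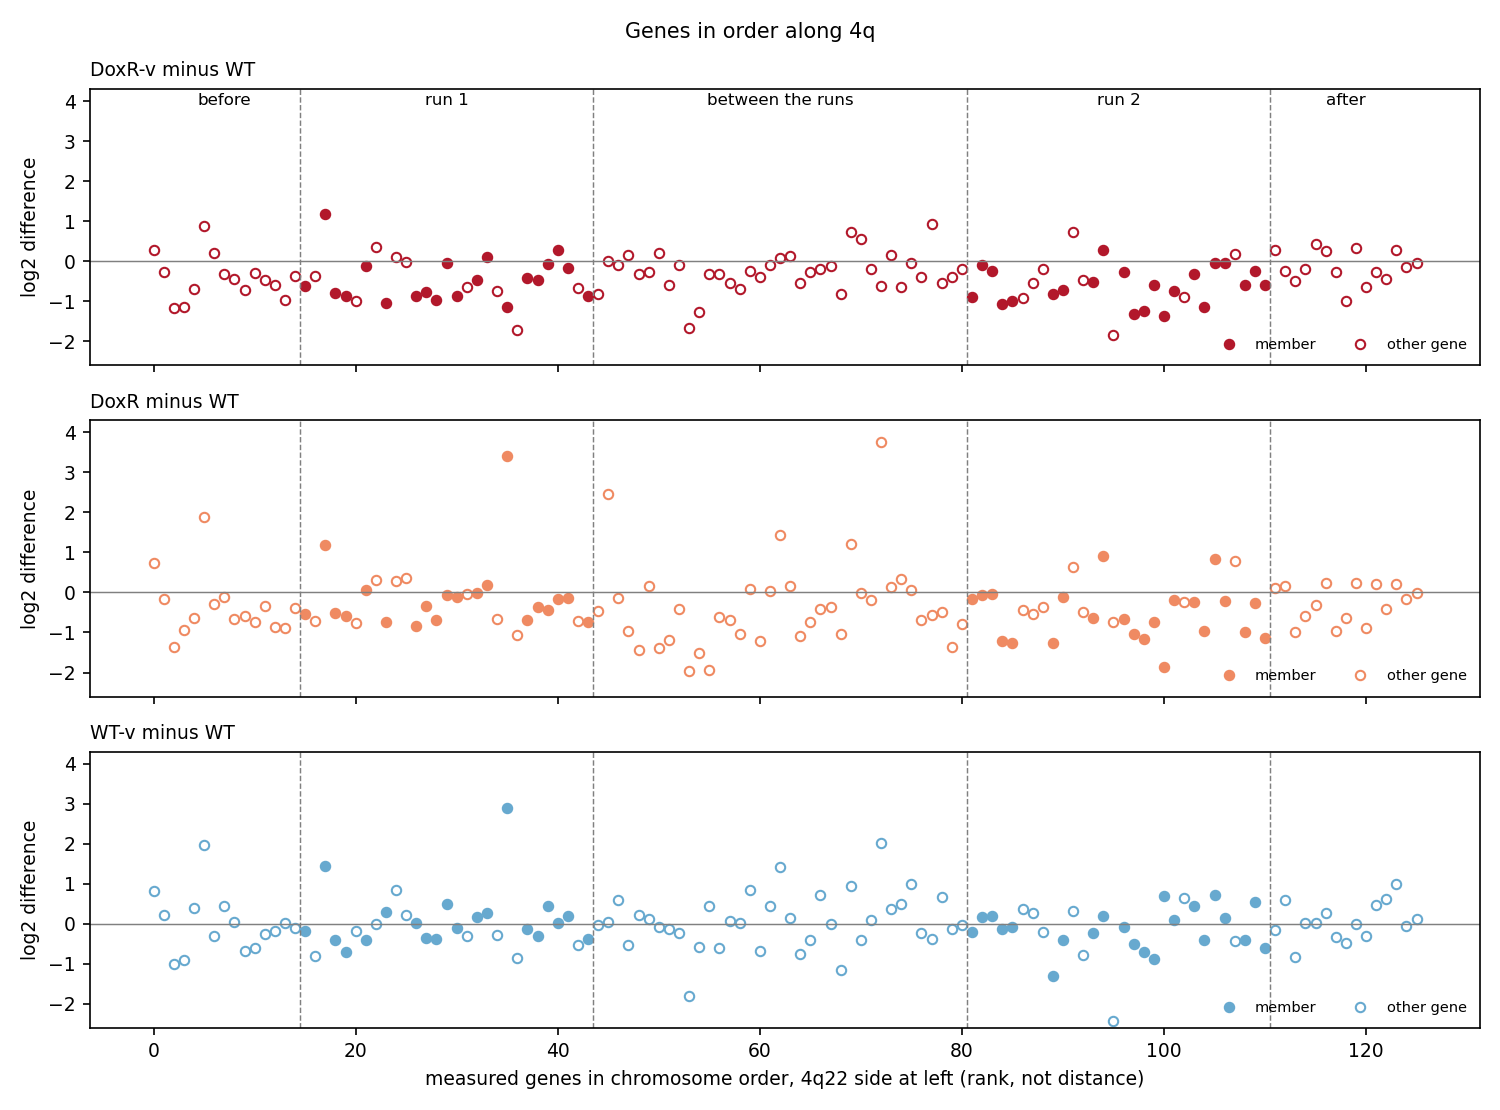
Log2 difference from WT (vertical axis) of each measured gene in chromosome order (horizontal axis, rank and not distance) in DoxR-v (top), DoxR (middle) and WT-v cells (bottom), with members as filled and other genes as open points and dashed lines at the ends of the runs. Of the members, 36 of 42 lie below 0 in DoxR cells and 23 of 42 in WT-v cells.

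Among the transcription factors, LEF1 stood apart from its neighbours. LEF1 measured 4.67, 4.46 and 4.83 log2 units in DoxR-v, 9.16, 9.20 and 9.23 in DoxR, 8.69, 8.64 and 8.76 in WT-v and 5.28, 5.98 and 6.12 in WT cells. The DoxR and WT-v arrays lay far above the others, the DoxR-v arrays were the lowest of the 12, and no 2 groups overlapped. LEF1 was detected on no DoxR-v array and on 2 of 3 WT arrays. It rose 10.6-fold in DoxR (adjusted p = 2.71e-08, limma) and 7.48-fold in WT-v cells (adjusted p = 3.22e-07), and DoxR and WT-v cells did not pass the limits against each other (log2 0.50, SE 0.19, adjusted p = 0.0581). DoxR-v cells were at least 12.6-fold lower than DoxR cells, at least 8.89-fold lower than WT-v cells and at least 1.19-fold lower than WT cells. A second LEF1 probe also rose in both, and was detected on all DoxR and WT-v arrays and on no DoxR-v or WT array. The fibroblast marker COL3A1 was high in the same groups, with means of 4.83 in DoxR-v, 7.68 in DoxR, 6.73 in WT-v and 4.57 in WT cells, while COL1A1 averaged 4.67, 4.81, 5.11 and 4.51 in these groups. Their part in the result was not tested. NFKB1 averaged 9.86 ± 0.06 in DoxR-v, 10.14 ± 0.12 in DoxR, 10.26 ± 0.11 in WT-v and 10.66 ± 0.07 in WT cells (SD, n = 3 each). It was below the fold limit in DoxR (log2 −0.51, adjusted p = 0.00581) and WT-v cells (−0.40, 0.0295), although WT arrays were above all others. ELF2, a factor of the ETS family, averaged 8.42 ± 0.12 in DoxR-v, 9.02 ± 0.05 in DoxR, 8.71 ± 0.28 in WT-v and 9.13 ± 0.04 in WT cells. Its DoxR-v and WT-v arrays overlapped. MAML3, a coactivator of Notch, and SMAD1, which carries BMP signals, have no value.

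The 3 measured ubiquitin genes, RNF150, USP38 and ANAPC10, fell in DoxR against WT cells, as did 16.3% of all genes. RNF150, a ligase of the RING type, measured 7.17, 7.47 and 7.25 in DoxR-v, 6.59, 6.82 and 6.95 in DoxR, 9.29, 9.10 and 9.68 in WT-v and 8.96, 8.31 and 8.70 in WT cells. Both resistant groups lay below both sensitive groups on every array, and WT-v above WT. RNF150 fell 3.65-fold in DoxR against WT (adjusted p = 8.65e-06) and 5.92-fold against WT-v cells (5.35e-07), and rose 1.62-fold in WT-v against WT cells (adjusted p = 0.0153). That rise was not called without WT replicate 2 (log2 0.52) or without WT-v replicate 3 (0.54). USP38, a deubiquitinase, measured 9.36, 9.11 and 9.14 in DoxR-v, 9.50, 9.31 and 9.31 in DoxR, 9.86, 10.17 and 9.77 in WT-v and 10.16, 10.31 and 10.57 in WT cells, and fell 1.96-fold in DoxR against WT cells (adjusted p = 0.000293). ANAPC10, which helps the anaphase-promoting complex to bind its substrates, fell 1.97-fold in DoxR against WT (adjusted p = 0.000455) and by 0.59 on the log2 scale against WT-v cells (0.0142). Its DoxR-v arrays lay above its DoxR arrays, by a mean of 0.38 log2 units.

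**Figure D3:**
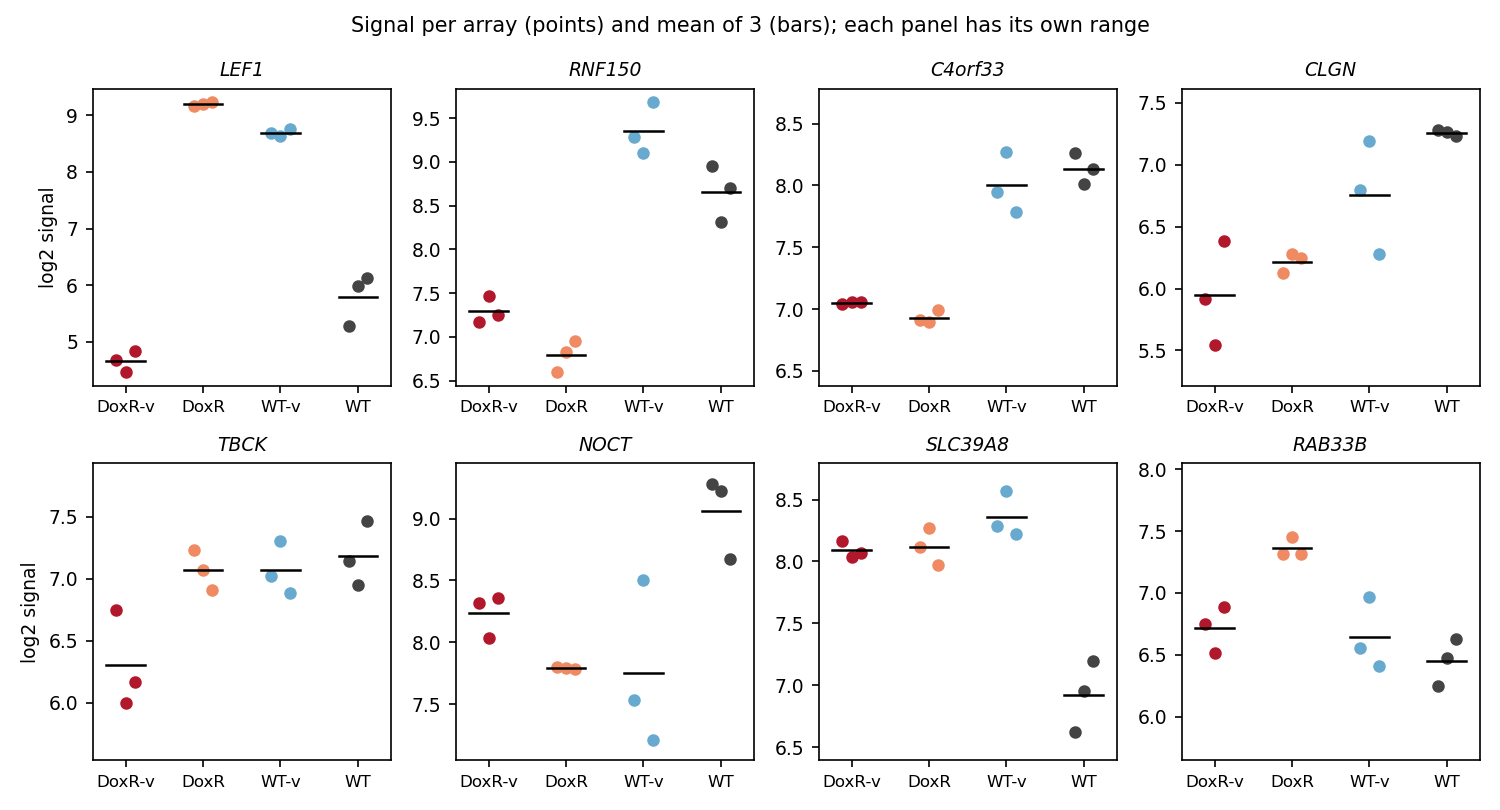
Log2 signal (vertical axis, with its own range in each panel) of 8 members on each array (points) with the mean of 3 arrays (bars) in DoxR-v, DoxR, WT-v and WT cells. LEF1 is high in DoxR and WT-v, RNF150 and C4orf33 are low in DoxR-v and DoxR, TBCK is low in DoxR-v, SLC39A8 is low in WT, and RAB33B is high in DoxR.

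The secretory pathway and membrane traffic had the most measured members, 8 of 8 listed. Of these, 5 fell and 1 rose in DoxR against WT cells, where 16.3% of all genes fell and 17.4% rose. CLGN, a chaperone of the endoplasmic reticulum best known from the testis, measured 5.92, 5.55 and 6.39 in DoxR-v, 6.12, 6.28 and 6.25 in DoxR, 6.79, 7.19 and 6.28 in WT-v and 7.28, 7.26 and 7.24 in WT cells. The WT arrays lay above all others, and the DoxR and WT-v arrays came within 0.01 of each other at the third WT-v array. CLGN fell 2.06-fold in DoxR against WT cells (adjusted p = 0.0029). ELMOD2, which activates the GTPase activity of ARF-like proteins, measured 6.49, 6.47 and 6.78 in DoxR-v, 6.74, 6.67 and 6.50 in DoxR, 7.03, 7.47 and 6.83 in WT-v and 7.73, 7.86 and 7.85 in WT cells. It fell 2.25-fold in DoxR (adjusted p = 0.000125) and 1.63-fold in WT-v cells (0.00681), and the WT-v call was lost without WT-v replicate 3 (log2 −0.57). SCOC, a coiled-coil protein of the Golgi, fell 1.57-fold in DoxR cells (adjusted p = 0.00866), OSTC, a subunit of the oligosaccharyltransferase, 1.60-fold (0.00214) and TBC1D9, a protein with a Rab GTPase-activating domain, 1.68-fold (0.00742). TBC1D9 also fell in WT-v cells (1.83-fold, adjusted p = 0.00396), but under the fold limit when scaled to a common median (log2 −0.49).

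PGRMC2 and RAB33B separated the 2 resistant groups. PGRMC2, a haem-binding membrane protein and the first member of run 2, measured 9.96, 9.98 and 10.03 in DoxR-v and 10.56, 10.82 and 10.76 in DoxR cells, against 10.54, 10.70 and 10.76 in WT-v and 10.97, 10.77 and 10.87 in WT cells. Only the DoxR-v arrays were set apart, 1.65-fold below DoxR cells. RAB33B, a GTPase of the Golgi with a part in autophagy, measured 6.75, 6.52 and 6.89 in DoxR-v, 7.31, 7.45 and 7.31 in DoxR, 6.56, 6.97 and 6.41 in WT-v and 6.24, 6.47 and 6.63 in WT cells. The DoxR arrays were the highest, and RAB33B rose 1.88-fold in DoxR against WT (adjusted p = 0.000925) and 1.64-fold against WT-v cells (0.00501). SEC24B, a cargo-binding part of the COPII coat, passed the limits with its brightest probe in neither DoxR nor WT-v cells (log2 −0.37 and −0.29, adjusted p = 0.196 and 0.318). Another of its 3 probes passed in DoxR against WT cells (log2 −0.61, adjusted p = 0.0705).

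Of 4 measured members of RNA processing and protein synthesis, 3 fell and 0 rose in DoxR against WT cells, beside the same 16.3% and 17.4% of all genes. INTS12, a subunit of the Integrator complex, measured 9.02, 9.06 and 9.25 in DoxR-v, 9.43, 9.50 and 9.25 in DoxR, 9.60, 9.89 and 9.59 in WT-v and 9.99, 10.07 and 10.17 in WT cells, and fell 1.61-fold in DoxR against WT cells (adjusted p = 0.00171). GAR1, a core protein of the H/ACA particles that guide pseudouridylation and the last measured member of run 1, measured 10.58, 10.71 and 10.83 in DoxR-v, 10.70, 10.82 and 10.99 in DoxR, 11.18, 11.17 and 11.26 in WT-v and 11.55, 11.67 and 11.54 in WT cells. In both genes the WT-v arrays lay between the resistant groups and WT. GAR1 fell 1.68-fold in DoxR cells (adjusted p = 0.000544), and its 3 other probes fell too, by up to 1.37 on the log2 scale. NAA15, a subunit of the N-terminal acetyltransferase NatA, fell 1.56-fold in DoxR cells (adjusted p = 0.0136). ABCE1, which recycles ribosomes, averaged 10.44 ± 0.07 in DoxR-v, 10.43 ± 0.05 in DoxR, 11.23 ± 0.21 in WT-v and 10.69 ± 0.46 in WT cells (SD, n = 3 each). ABCE1 fell 1.75-fold in DoxR against WT-v cells (adjusted p = 0.00612), and its WT arrays spanned the range between.

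Of 5 measured metabolic members 2 fell in DoxR against WT cells, of 4 mitochondrial members 1 fell, and 0 rose, against 16.3% of all genes that fell and 17.4% that rose. NOCT, a phosphatase of NADP(H) with a circadian rhythm in many tissues, measured 8.32, 8.04 and 8.36 in DoxR-v, 7.80, 7.79 and 7.78 in DoxR, 7.53, 8.50 and 7.21 in WT-v and 9.28, 9.22 and 8.67 in WT cells. All WT arrays were above the others, and the WT-v arrays spread over more than 1 log2 unit. NOCT fell 2.41-fold in DoxR (adjusted p = 0.00233) and 2.48-fold in WT-v cells (0.00276). MANBA, the lysosomal beta-mannosidase, fell in DoxR (log2 −0.59, adjusted p = 0.0193) and WT-v cells (−0.70, 0.00913), and the WT-v call was lost without WT replicate 3 (log2 −0.50). MMAA, a chaperone of the cobalamin-dependent methylmalonyl-CoA mutase and the last member of run 2, was detected on no DoxR array and on all 3 WT arrays. It averaged 5.50 ± 0.25 in DoxR-v, 4.96 ± 0.40 in DoxR, 5.47 ± 0.19 in WT-v and 6.09 ± 0.10 in WT cells, and its fall in DoxR cells was at least 1.56-fold (adjusted p = 0.00062). It also fell in WT-v cells (1.53-fold, adjusted p = 0.0312), but not without WT-v replicate 2 (log2 −0.52). MCUB, a subunit that dampens the mitochondrial calcium uniporter, fell 1.85-fold in DoxR against WT-v cells (adjusted p = 0.0044). PPA2, the mitochondrial pyrophosphatase, averaged 10.32 ± 0.07 in DoxR-v, 10.76 ± 0.09 in DoxR, 10.73 ± 0.31 in WT-v and 11.10 ± 0.07 in WT cells, and was not called in DoxR cells (log2 −0.34, adjusted p = 0.105). PAPSS1, which makes the sulfate donor PAPS, CISD2, an iron-sulfur protein, and CYP2U1, a fatty acid hydroxylase, passed in neither DoxR nor WT-v cells.

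Of the signalling members, CXXC4 fell in DoxR cells and TBCK was lowest in DoxR-v cells. CXXC4, an inhibitor of Wnt signalling that binds Dishevelled, measured 7.53, 7.75 and 7.56 in DoxR-v, 7.66, 7.77 and 7.50 in DoxR, 8.53, 8.48 and 8.48 in WT-v and 8.65, 8.31 and 8.47 in WT cells. The 2 resistant groups overlapped and lay below both sensitive groups, and CXXC4 fell 1.78-fold in DoxR against WT (adjusted p = 0.000376) and 1.80-fold against WT-v cells (0.000333). TBCK, a pseudokinase with a TBC domain, measured 6.75, 6.00 and 6.16 in DoxR-v, 7.24, 7.07 and 6.91 in DoxR, 7.03, 7.31 and 6.88 in WT-v and 7.14, 6.95 and 7.47 in WT cells. Its DoxR-v arrays lay below every other array, and DoxR and WT-v cells were not called against WT. PPP3CA, the catalytic subunit of calcineurin and the first member of run 1, measured 7.47, 7.61 and 7.60 in DoxR-v, 7.54, 7.94 and 7.42 in DoxR, 7.91 to 8.08 in WT-v and 8.19, 8.01 and 8.32 in WT cells, and its DoxR difference was under the fold limit (log2 −0.54, adjusted p = 0.0143). GAB1, an adaptor of receptor tyrosine kinases, rose in DoxR (adjusted p = 0.00889) and WT-v cells (0.0261). It was detected on 1 of 3 arrays in each of those groups and on no DoxR-v or WT array, so no fold is given, and the WT-v call was lost without WT-v replicate 3 (log2 0.47). INPP4B, a phosphoinositide phosphatase, was detected on 2 WT-v arrays only, and its call in DoxR against WT-v cells (adjusted p = 0.0324) comes with overlapping arrays and no fold.

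The 2 transporters went opposite ways. SLC39A8 measured 8.16, 8.04 and 8.07 in DoxR-v, 8.11, 8.27 and 7.97 in DoxR, 8.29, 8.57 and 8.22 in WT-v and 6.62, 6.95 and 7.20 in WT cells. All arrays of the drug-exposed groups were above all WT arrays, and SLC39A8 rose 2.28-fold in DoxR (adjusted p = 9.09e-05) and 2.70-fold in WT-v cells (4.44e-05). SLC9B2, a sodium/proton exchanger, measured 6.45, 6.16 and 6.64 in DoxR-v, 6.83, 6.71 and 6.63 in DoxR, 7.85, 7.66 and 7.82 in WT-v and 7.16, 7.60 and 7.65 in WT cells. It fell 1.68-fold in DoxR against WT (adjusted p = 0.00305) and 2.08-fold against WT-v cells (0.000273). A second SLC9B2 probe was detected on 1 WT-v array and no other, so no direction is read from it.

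PCDH10, a protocadherin of cell adhesion, measured 5.43, 5.32 and 5.52 in DoxR-v, 5.58, 4.97 and 4.93 in DoxR, 6.44, 6.22 and 6.33 in WT-v and 6.39, 6.32 and 6.53 in WT cells. It was detected on all 6 arrays of the sensitive groups, on 1 DoxR array and on no DoxR-v array, and the resistant and sensitive groups did not overlap. PCDH10 fell 2.38-fold in DoxR against WT (adjusted p = 8.91e-05) and 2.25-fold against WT-v cells (0.000159), and DoxR-v cells were at least 1.82-fold below WT cells. A second PCDH10 probe was detected on 3 WT-v arrays, 1 WT array and no resistant array. It also passed for lower in DoxR against WT (adjusted p = 0.00159) and WT-v cells (0.000522). In DoxR-v against WT cells it stayed under the fold limit (log2 −0.50). The chromatin members JADE1, part of a histone acetyltransferase complex, and SMARCA5, the ATPase of ISWI remodellers, were called in no contrast by their brightest probes. In DoxR against WT-v cells a second SMARCA5 probe (log2 −0.85, adjusted p = 0.00143) and a second JADE1 probe (−0.81, 0.00682) did pass. TET2, which oxidizes methylcytosine, and SETD7, a methyltransferase of histone H3, have no value. CASP6, an executioner caspase, was detected on 1 DoxR-v array and no other, and PLA2G12A, a phospholipase, on 1 WT-v array and no other.

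For head-to-head pairs with both genes measured, the values of the 2 genes were set side by side. C4orf33, for which no role is given here, measured 7.04, 7.05 and 7.06 in DoxR-v, 6.91, 6.89 and 6.99 in DoxR, 7.95, 8.27 and 7.78 in WT-v and 8.26, 8.01 and 8.13 in WT cells. The resistant groups lay below the sensitive groups by more than the spread of either, and C4orf33 fell 2.30-fold in DoxR against WT (adjusted p = 2.71e-05) and 2.10-fold against WT-v cells (7.57e-05). Its partner SCLT1, a protein of the centriole needed for cilia, averaged 6.70 ± 0.13 in DoxR-v, 6.90 ± 0.24 in DoxR, 7.12 ± 0.15 in WT-v and 6.94 ± 0.23 in WT cells and was called in neither DoxR nor WT-v cells. INTS12 fell in DoxR cells while the brightest probe of its partner GSTCD was close to background, detected on 1 WT-v array and no other. A second GSTCD probe, detected on 2 WT-v arrays and no other, passed in WT-v against WT (adjusted p = 0.0103) and in DoxR against WT-v cells (0.00425). Of ANAPC10 and ABCE1, ANAPC10 fell in DoxR against WT cells and ABCE1 did not (log2 −0.27, adjusted p = 0.318), and both fell in DoxR against WT-v cells. Differences within a pair were not tested.

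Of the 90 probes that name a member, 64 were kept, and 17 members had more than 1. In DoxR-v against WT cells 57 of the 64 had a log2 difference below 0, and in DoxR against WT cells 54 did. A dimmer probe passed the limits where the brightest probe of the gene did not for SEC24B in DoxR against WT cells, for PPP3CA, GSTCD, GAR1 and JADE1 in WT-v against WT cells, and for GSTCD, PAPSS1, LEF1, OSTC, SEC24B, GAR1, JADE1 and SMARCA5 in DoxR against WT-v cells. Probes of a gene share its RNA and are not replicates.

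The genes around and between the runs, none of them members, also tended down in DoxR cells. Of 54 other genes measured inside the stretch, 22 fell and 6 rose in DoxR against WT cells (40.7% and 11.1%, beside 16.3% and 17.4% of all genes). Scaled to a common median 14 fell, beside 10.1% of all genes, and 8 rose. Between the runs 16 of 37 fell and 4 rose, with a median of −0.49, and against WT-v cells 14 fell and 2 rose, with a median of −0.41. In DoxR-v cells the same 37 genes lay nearer to WT, with 8 lower and 2 higher and a median of −0.26, and against DoxR cells 9 of them were higher and 4 lower. That these genes are not on the list may itself rest on their DoxR-v values. Of the 15 measured genes before run 1, 7 fell and 2 rose in DoxR against WT cells, and of the 15 after run 2, 4 fell and 0 rose. Over the remaining 320 measured genes of chromosome 4, 61 fell and 53 rose (19.1% and 16.6%), with a median of 0.01.

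**Figure D4:**
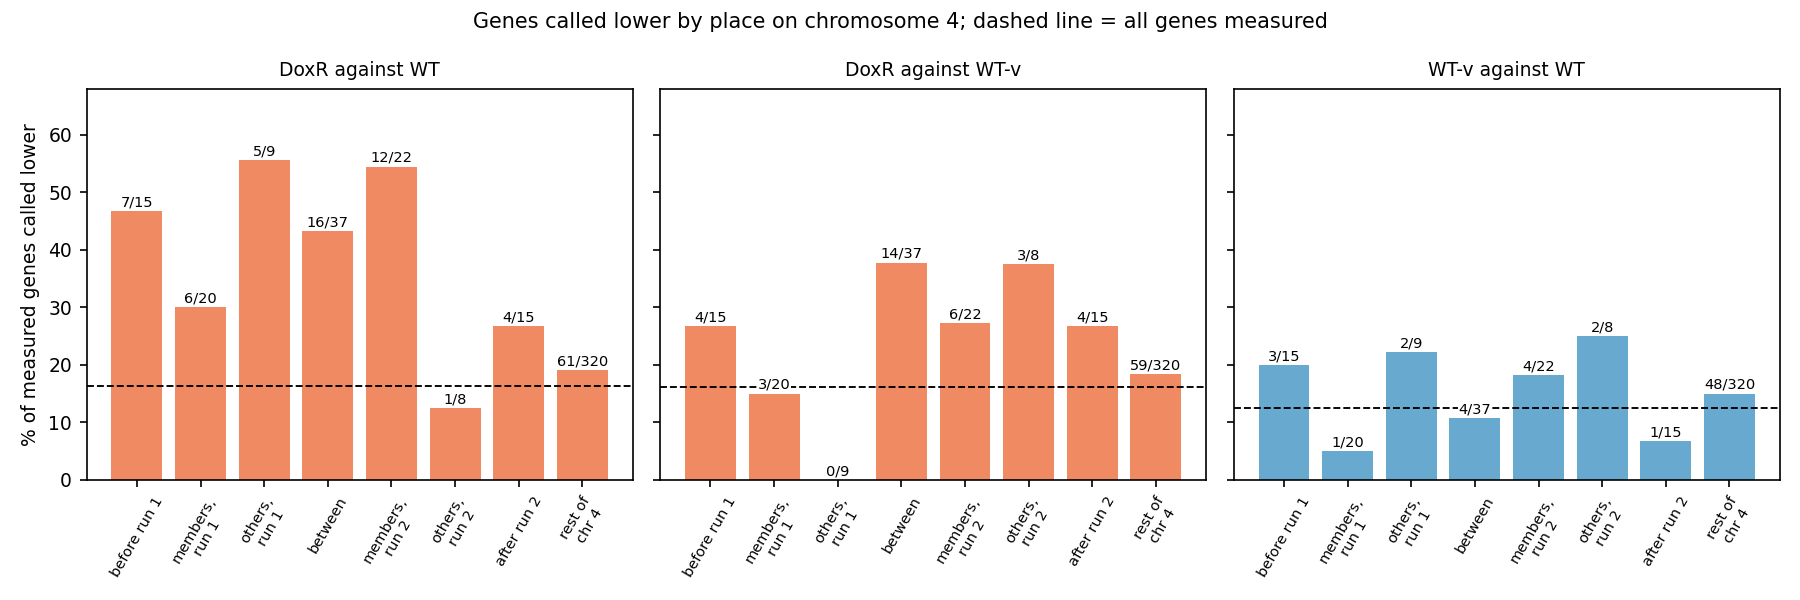
Share of measured genes called lower (vertical axis, %) by place on chromosome 4 in DoxR against WT (left), DoxR against WT-v (middle) and WT-v against WT cells (right), with the count over each bar and a dashed line at the share of all genes. In DoxR against WT cells the bars before, inside and between the runs reach 30% to 55.6% except the 12.5% of the 8 other genes in run 2, and the rest of chromosome 4 is at 19.1%.

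Genes just outside the named ends of the runs went different ways in DoxR against WT cells, where 16.3% of all genes fell and 17.4% rose. Before run 1, DNAJB14, a co-chaperone, fell in DoxR cells (log2 −0.90, adjusted p = 0.0016) and H2AZ1, a histone variant, differed by less than the fold limit (−0.39). After run 1, ELOVL6, a fatty acid elongase, was under the fold limit in DoxR cells (−0.46), and FAM241A rose at least 2.99-fold in DoxR against WT cells (adjusted p = 6.25e-07) and was detected on no array of the other 3 groups. Before run 2, MFSD8, a lysosomal membrane protein, and LARP1B fell in DoxR cells (log2 −1.36 and −0.78). After run 2, ZNF827 was not called (0.15) and C4orf51 was near background. Inside run 1, RPL34, a ribosomal protein with many near-identical pseudogenes and so an uncertain signal, fell by 1.07 on the log2 scale in DoxR cells, and HADH, an enzyme of fatty acid oxidation, fell by 0.67. Inside run 2, MGST2, a glutathione transferase of membranes, fell in DoxR (log2 −0.73) and WT-v cells (−2.44). Between the runs the widest calls in DoxR cells were SPRY1, an inhibitor of growth factor signalling, which rose by 3.75, and SNHG8, a host gene of small nucleolar RNA, and PRSS12, a neuronal serine protease, with log2 differences of −1.96 and −1.94. PRSS12 was not called in DoxR-v against WT cells (−0.31).

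Of genes elsewhere in the genome whose products are paralogs or complex partners of the members, few fell in DoxR cells. Of 93 such genes listed, 4 were on chromosome 4 and left out, and 72 were measured. In DoxR against WT cells 2 of the 72 fell and 17 rose (2.78% and 23.6%, beside 16.3% and 17.4% of all genes), with a median of 0.23. In WT-v against WT cells 3 fell and 12 rose (4.17% and 16.7%, beside 12.5% and 14.5%), with a median of 0.11, and in DoxR-v against WT cells 5 fell and 4 rose (6.94% and 5.56%, beside 12.6% and 13.3%), with a median of 0.12. Scaled to a common median, 1 fell and 28 rose in DoxR, 1 fell and 23 rose in WT-v and 3 fell and 19 rose in DoxR-v cells. Over all 12138 genes 4464, 4131 and 3981 were then called, and 72.6%, 80.2% and 80.5% of these calls were higher. Nothing particular to the partners is read from the counts under this scaling. Without WT replicate 3, 8 rose in DoxR-v and 19 in WT-v cells, with the shares of all genes not counted. Of the Integrator subunits INTS8 rose by 1.29 and INTS3 by 1.06 in DoxR cells, while INTS1 fell by 1.29. TCF7L2, a paralog of LEF1, rose by 2.05 in DoxR-v against WT cells (adjusted p = 2e-04). RAB33A, a paralog of RAB33B, fell in DoxR-v (log2 −1.99) and WT-v (−2.20) against WT cells. SMAD9, ANAPC11, JADE3 and MMAB, paralogs or partners of SMAD1, ANAPC10, JADE1 and MMAA, fell in DoxR-v cells too, and ELF1 and JADE2 rose by 1.94 and 1.53 in DoxR cells.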

How the data were processed

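RNA of 12 arrays was analysed, 3 per group. As deposited by the authors, the values are probe signal intensities, 1 per probe and array before any normalization. Per the file headers a detection p-value stands beside each intensity, which this platform derives from its negative control probes. A second deposited table holds intensities that the authors quantile normalized, with a median of 149 on every array, and was used as an alternative. Lumi 2.13.3 under R 3.0.1 is named in the processing notes of the submitters. The software that summarised the beads is not given in the sources used here.

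The signals were background-corrected by normexp (offset 16, with the background read from the detection p-values), then quantile normalized and taken to log2 with limma 3.58.1 in R 4.3.3. Of 47323 probes, 30113 named 1 gene, 8 named several and 17202 none, and 30074 were matched to RefSeq by Entrez ID. Probes detected on any array (p-value under 0.01) were kept (21730, of which 16412 had 1 symbol), and a gene took its probe with the highest mean. All 12 arrays were fitted with 1 mean per group, and p-values were adjusted by Benjamini-Hochberg over all probes kept. Calls needed an adjusted p below 0.1 with a fold above 1.5, the limits of the methods. Where the dimmer group was detected on no array, the fold was taken against the lowest detected signal of each of its arrays, or the probe's own signal where higher, and is written as at least that value. The fit was tested on simulated data.

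The members and all gene lists were chosen with earlier results of these data known. Named were the ends of the runs and the 2 measured genes outside each, the members with the widest differences per contrast, members with no value, head-to-head pairs, members whose probes disagree, and the called neighbours and partners with the widest changes. Any member could be named within its role. Promoters and motifs were read with Python 3.11.15. The number of arrays limits the precision. As alternatives the deposited normalized table, signals without background correction, an offset of 50, median scaling, no filter on detection, detection on 3 or more arrays, a fit of the compared groups alone, the replicate number as a block, all probes of a gene averaged, an adjusted p under 0.05, a fold over 2, and leaving out each array were tried. Samples of the SK-N-SH line were left out, being not analysed here.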

Additional observations from a re-analysis of the deposited data

Results flagged for a closer look

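LEF1 differed in opposite directions in DoxR-v against DoxR and in WT-v against WT cells. DoxR-v cells came from a parallel selection and are not DoxR cells given vorinostat. Every DoxR-v array lay below the DoxR mean (mean log2 difference −4.54), while every WT-v array lay above the WT mean (2.90). Read the other way, DoxR-v lay below WT-v cells by a mean of −4.04 and DoxR above WT cells by 3.40. These are differences of measured signals, and as DoxR-v cells were detected on no array, the folds are at least 12.6 against DoxR and at least 8.89 against WT-v cells.

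GAB1 showed the same form at signals near the background, with −0.89 for DoxR-v against DoxR and 0.72 for WT-v against WT cells, and with −0.76 for DoxR-v against WT-v and 0.85 for DoxR against WT cells. These too are differences of measured signals, and since no DoxR-v or WT array detected GAB1 they stand for no fold. The differences between these contrasts were not tested for either gene, and both were members chosen for low values in DoxR-v cells. Groups of 3 arrays were not examined for single arrays that stand apart.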

How the results depend on the processing

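Of the 26 widest calls of members in the contrasts without DoxR-v, 11 held under every alternative and none turned its direction. Those of LEF1, SLC39A8, NOCT, RNF150, C4orf33 and ELMOD2 in DoxR against WT cells were among the 11 that held. Calls of members outside the 26 were not followed one by one. Both the deposited normalized values and signals without background correction lost the calls of PCDH10, MMAA, RAB33B and GAB1 in DoxR against WT cells. So it was for PCDH10, MCUB and RAB33B in DoxR against WT-v and for MANBA, ELMOD2, MMAA and GAB1 in WT-v against WT cells. The deposited values also lost SLC9B2 and CXXC4 in DoxR against WT-v and TBC1D9 and RNF150 in WT-v against WT cells. Median scaling lost MANBA, ELMOD2 and MMAA in WT-v against WT cells (limma adjusted p = 0.358, 0.268 and 0.264). It also lost TBC1D9 there, by the fold limit alone.

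Counts are of members that fell unless said otherwise. With the deposited normalized values, 9 members fell in DoxR against WT, 1 in WT-v against WT and 3 in DoxR against WT-v cells. Of all genes, 8.04%, 5.95% and 7.39% fell in these contrasts, and the 3 of 42 members in the last are near that share. Of the other genes of the stretch 12 fell in DoxR cells, and between the runs 9 fell against WT and 6 against WT-v cells. Of the partners 1 rose in DoxR-v, 7 in DoxR and 3 in WT-v cells. The members' medians were −0.38 in DoxR-v against WT and −0.23 against WT-v cells, those of run 1 and run 2 −0.38 and −0.38 in DoxR-v and −0.20 and −0.34 in DoxR cells. Without background correction these counts were 10, 2, 5, 13, 10 and 8, beside 9.55%, 7.16% and 9.13% of all genes for the first 3. Those of the partners were 2, 8 and 6. The medians were −0.44 and −0.30 over all members and −0.43 in DoxR-v and −0.46 in DoxR cells in run 2. An offset of 50 left 2 members in WT-v cells, where 9.38% of all genes fell, and 2 partners in DoxR-v cells. With a fold over 2, 7, 1 and 4 members fell, and 1, 8 and 1 partners rose in DoxR-v, DoxR and WT-v cells. At this limit 12 other genes of the stretch and 8 between the runs against WT-v cells fell. The shares of all genes over this fold were not counted.

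Under median scaling the median of all genes was 0.23 in DoxR-v, 0.18 in DoxR and 0.24 in WT-v against WT cells, against 0.02, 0.01 and 0.03 by quantiles, and the share of higher among calls was 80.5%, 72.6% and 80.2%, against 51.3%, 51.7% and 53.6%. Then 11 members fell in DoxR and 1 in WT-v cells (10.1% and 6.74% of all genes). Of the other genes of the stretch 14 fell in DoxR cells, and 19, 28 and 23 partners rose in DoxR-v, DoxR and WT-v cells. The members' median was −0.29 in DoxR-v against WT cells, and those of run 1 and run 2 were −0.26 and −0.31 in DoxR-v, −0.17 and −0.35 in DoxR and 0.21 and 0.24 in WT-v cells, so that the WT-v medians turned positive. Relative to all genes the members' medians were −0.53, −0.38 and −0.01 in DoxR-v, DoxR and WT-v cells. With detection on at least 3 arrays, which drops dim genes, run 1 had a median of −0.78 in DoxR-v and run 2 of −0.70 in DoxR cells.

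Leaving out 1 array at a time, 14 to 19 members fell in DoxR against WT, 4 to 5 in WT-v against WT and 8 to 15 in DoxR against WT-v cells. Of the partners 3 to 8, 14 to 21 and 8 to 19 rose in DoxR-v, DoxR and WT-v cells. Shares of all genes were not counted for these fits. The median of run 1 ranged from −0.70 to −0.45 in DoxR-v cells and that of run 2 from −0.71 to −0.49 in DoxR-v and from −0.73 to −0.53 in DoxR cells.

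Same-numbered specimens of different groups did not deviate together (mean r −0.04 over 18 pairs, from −0.27 to 0.11). The numbers thus gave no sign of a pairing, which so few specimens cannot exclude. With the number as a replicate block 18 members fell in DoxR against WT, 5 in WT-v against WT and 9 in DoxR against WT-v cells. None of the 26 widest calls was lost. A BeadChip block was not run because the files name no BeadChip. The cause of these shifts was not tested. For dim members such as GAB1, GSTCD, INPP4B, CASP6 and PLA2G12A the signal over background limits what can be said.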
